A study of Rattus norvegicus with 15 samples.

Results

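The RT1 genes are the rat's major histocompatibility complex (MHC) genes. They were taken as all genes whose symbol on the array platform starts with RT1-, using annotation lines that carry 1 symbol and, for a gene with more than 1 probe set, the probe set of highest mean over the 15 arrays. This gave 35 genes of 14506 in all, 26 of class I and 9 of class II by symbol, and all 35 lie on chromosome 20 in RefSeq. Of 41 probe sets with an RT1- symbol, 37 carried 1 symbol and 4 carried several, and 2 genes (RT1-CE7 and RT1-T24-4) had 2 probe sets. No filter on low values was used, so all 35 genes were tested.

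Expression was measured on Affymetrix arrays that were hybridised with RNA of freshly isolated rat hepatocytes, the main cells of the liver. The cells had been cultured in microfluidic biochips, which are small chambers under a continuous flow of medium. The 3 groups were DMSO, the solvent (dose 0 µM, n = 5), flutamide at 10 µM (n = 6) and flutamide at 100 µM (n = 4), each for 24 h. Flutamide is an anti-androgen drug known for liver toxicity in some patients. The sample titles number the biochips 20 to 27 (here run 2, n = 8) and 10 to 16 (run 1, n = 7). Run 2 held 3 DMSO arrays, 3 arrays of 10 µM flutamide and 2 of 100 µM, and run 1 held 2, 3 and 2 arrays of these groups. The labels do not say what the numbers stand for, name no strain, and do not say whether biochips came from separate animals, so the p-values rest on the spread between arrays, which may be technical.

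MHC class I molecules carry peptides from inside the cell to the surface, bound to beta-2-microglobulin, and nearly all nucleated cells make them, hepatocytes included. MHC class II molecules are pairs of an alpha and a beta chain that carry peptides from taken-up proteins, and in liver they are made mainly by Kupffer cells (the liver's resident macrophages), dendritic cells and B cells. In the rat the classical class I genes are the RT1-A genes, and the CE, M, N, O, S and T genes lie in other class I blocks of the same region. Class I genes are numerous, similar in sequence and different between strains in number and alleles.

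Of the hepatocyte markers, albumin (Alb) had a mean log2 level of 12.91 over the arrays, transthyretin (Ttr) 12.27 and apolipoprotein A1 (Apoa1) 11.73. Cyp2c11, a cytochrome P450 of male rat liver, had 5.59, near the array medians of 5.38 to 5.51, and spanned 4.53 to 7.38 over the arrays. No 2 arrays were identical, and array pairs correlated between 0.955 and 0.994. Array 23 (10 µM flutamide, run 2) stood apart, with the lowest quality weight, 0.205, against 0.427 for array 15 (100 µM, run 1) and 0.549 for array 24 (10 µM, run 2), the next lowest. Several results on RT1 genes that rest on array 23 are given with and without it, whereas the differences of the gene lists are given only with it.

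Promoter sequences are shown for the pair of genes with the largest run difference (RT1-N2 and RT1-CE5), for RT1-CE4, the neighbour of RT1-CE5, and for the alpha-chain genes of RT1.D and RT1.B, class II genes that were high on array 23. They come from RefSeq, build GRCr8, and 31 of the 35 genes had an entry of 300 bases, 250 before and 50 after the start. RT1-N2 is given as chr20:2646080-2646379 (plus strand), RT1-CE5 as chr20:3484041-3484340 (minus strand) and RT1-CE4 as chr20:3509107-3509406 (minus strand). RT1-Da is shown as the stretch chr20:4515272-4515390 (plus strand, 119 bases) and RT1-Ba as chr20:4576921-4577038 (plus strand, 118 bases). All are written 5′ to 3′ in the direction of the gene, with matches to the motifs named next in capitals.
RT1-N2: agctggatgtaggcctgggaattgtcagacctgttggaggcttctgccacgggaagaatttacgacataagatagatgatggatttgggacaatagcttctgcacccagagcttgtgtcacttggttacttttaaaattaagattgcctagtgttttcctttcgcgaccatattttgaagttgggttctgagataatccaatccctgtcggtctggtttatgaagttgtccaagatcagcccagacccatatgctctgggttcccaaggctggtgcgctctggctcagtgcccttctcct
RT1-CE5: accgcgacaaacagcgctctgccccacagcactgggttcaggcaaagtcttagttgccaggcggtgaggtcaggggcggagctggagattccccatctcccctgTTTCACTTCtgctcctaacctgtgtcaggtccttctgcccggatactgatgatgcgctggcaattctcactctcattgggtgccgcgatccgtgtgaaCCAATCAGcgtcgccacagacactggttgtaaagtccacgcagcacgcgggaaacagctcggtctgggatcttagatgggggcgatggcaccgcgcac
RT1-CE4: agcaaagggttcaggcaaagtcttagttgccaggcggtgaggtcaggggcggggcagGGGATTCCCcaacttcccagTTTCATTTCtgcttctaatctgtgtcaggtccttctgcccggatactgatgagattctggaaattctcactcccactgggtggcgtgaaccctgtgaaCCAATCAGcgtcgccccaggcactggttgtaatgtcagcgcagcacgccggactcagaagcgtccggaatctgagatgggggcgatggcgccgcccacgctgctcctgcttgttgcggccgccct
RT1-Da: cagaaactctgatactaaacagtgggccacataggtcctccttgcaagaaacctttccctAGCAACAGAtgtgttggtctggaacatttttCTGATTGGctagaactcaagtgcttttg
RT1-Ba: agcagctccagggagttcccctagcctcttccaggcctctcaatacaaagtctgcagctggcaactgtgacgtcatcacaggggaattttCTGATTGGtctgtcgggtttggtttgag

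Motifs known from MHC promoters were searched on both strands, and no matches overlapped (0 overlaps). The kappa B motif of the class I enhancer, GGGATTCCC, was in the promoters of 5 of 23 class I genes (RT1-CE16, RT1-CE13, RT1-CE11, RT1-CE10 and RT1-CE4) and of 0 of 8 class II genes, against 0.365% of all 33469 promoters. The interferon-response core GAANTGAAA was in 9 class I promoters, RT1-CE5 and RT1-CE4 among them, against 1.93% of all promoters. The Y box CTGATTGG was in 8 class I and 6 class II promoters, against 3.5% of all. The X box core AGNAACNGA, a class II element, was in 6 of 8 class II promoters (RT1-Da, RT1-Db1, RT1-Bb, RT1-DOb, RT1-DOa and RT1-Ha) and 1 class I promoter (RT1-M10-1), against 5.28% of all. RT1-N2 had 0 matches, RT1-CE5 had 2 and RT1-CE4 had 3, and the RT1-CE5 and RT1-CE4 windows were 72.2% identical over 327 aligned columns. These are matches of letters in a reference genome and say nothing of binding in these cells.

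Between the title number runs, 4 class I genes passed the test and no class II gene did. RT1-N2 and RT1-CE5, a pair of class I genes in separate blocks of the region, were more than 4-fold lower in run 2 in the fit over all groups, in which dose is a term. RT1-CE7 and RT1-O1 were lower by smaller amounts. These 4 of 35 genes passed limma's test at an adjusted p under 0.05 over all genes, all of them lower and of class I, where 0.317% of all genes tested were called lower (0.545% in either direction, 79 genes). At an unadjusted p under 0.05, 11 class I genes were lower and 1 was higher in run 2, against 6.23% lower and 4.73% higher of all genes. The median run difference was -0.22 log2 over the 26 class I genes, 21 of them lower, and 0.15 over the 9 class II genes, against 0.00 over all genes.

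RT1-N2 had log2 levels of 5.03, 4.87 and 5.16 on the DMSO arrays of run 2, against 7.62 and 7.41 on those of run 1. With 10 µM flutamide it had 5.81, 5.10 and 5.43 in run 2, against 8.02, 7.12 and 7.76 in run 1, and with 100 µM 5.54 and 5.59 in run 2, against 7.92 and 7.31 in run 1. All 8 arrays of run 2 lay below all 7 of run 1. The mean was 5.32 ± 0.32 (SD, n = 8) in run 2 and 7.59 ± 0.33 (SD, n = 7) in run 1. The run 2 mean was just below the array medians of 5.38 to 5.51, and whether it is above background was not tested. The run difference was -2.25 log2 (SE 0.15, 95% interval -2.56 to -1.93), 4.75-fold lower in run 2, with an adjusted p of 2.8e-06 (limma), rank 2 of all genes by p.

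RT1-CE5 had log2 levels of 6.05, 5.96 and 6.23 on the DMSO arrays of run 2, against 8.94 and 8.30 on those of run 1. With 10 µM flutamide it had 6.55, 6.62 and 6.32 in run 2, against 8.97, 8.07 and 8.76 in run 1, and with 100 µM 5.97 and 6.66 in run 2, against 7.50 and 8.41 in run 1. Again no array of run 2 reached the level of any array of run 1. The mean was 6.30 ± 0.29 (SD, n = 8) in run 2 and 8.42 ± 0.53 (SD, n = 7) in run 1. The difference was -2.12 log2 (SE 0.19, 95% interval -2.53 to -1.71), 4.34-fold lower in run 2 (adjusted p = 7.7e-05, limma).

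RT1-CE7 averaged 8.43 ± 0.13 in run 2 (SD, n = 8) and 8.84 ± 0.15 in run 1 (SD, n = 7), a difference of -0.42 log2 (SE 0.08, adjusted p = 0.0341, limma). Its arrays met at the edge, since the highest of run 2 (8.62) was just above the lowest of run 1 (8.61). RT1-O1, a gene of the same block as RT1-N2, averaged 4.34 ± 0.29 in run 2 and 4.97 ± 0.27 in run 1. Both means were below the array medians of 5.38 to 5.51. Its arrays overlapped over all groups, and the difference was -0.62 log2 (SE 0.13, adjusted p = 0.0496, limma). Within each treatment group, the run 2 arrays of RT1-CE7 and of RT1-O1 all lay below those of run 1. Of 14506 genes, 2155 did so with DMSO, 1202 with 10 µM and 2608 with 100 µM. The calls of RT1-CE7 and RT1-O1 were near the threshold. RT1-CE7 lost its call in 10 of 15 fits that each left out 1 array, with adjusted p between 0.0511 and 0.0783 in those fits, and RT1-O1 lost it in 13 of 15, whereas RT1-N2 and RT1-CE5 kept theirs in all 15.

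RT1-CE15 did not overlap between the runs either, with 7.76 ± 0.18 in run 2 (SD, n = 8) and 8.18 ± 0.16 in run 1 (SD, n = 7), but its difference of -0.41 log2 missed the threshold (adjusted p = 0.0652, limma). With RT1-N2 and RT1-CE5 it made 3 members whose run 2 arrays all lay below those of run 1, against 0.407% of all genes. RT1-CE2 (-0.37 log2, adjusted p = 0.0947), RT1-CE13 (-0.37, adjusted p = 0.101) and RT1-N3 (-0.85, SE 0.22, adjusted p = 0.118) had negative differences that did not pass. RT1-CE16 had the smallest p among the positive differences (0.24 log2, adjusted p = 0.152, limma). The smallest class I differences were those of RT1-CE11 (-0.01 log2), RT1-M10-1 (0.03), a long non-coding RNA in RefSeq, and RT1-T18 (-0.04).

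**Figure D1:**
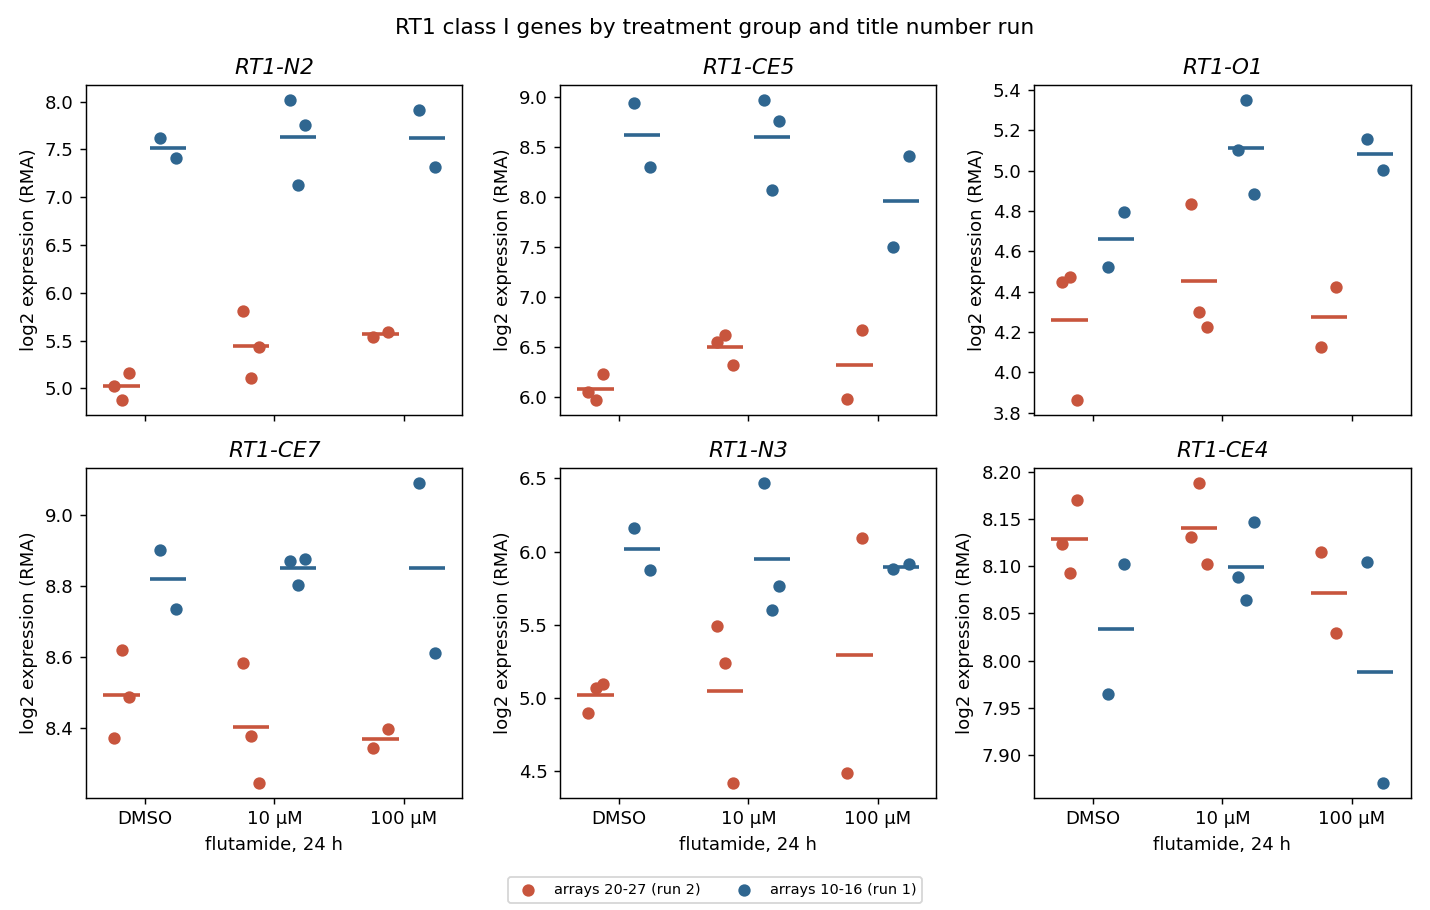
Log2 expression (y axis, own scale in each panel) of 6 class I genes by flutamide dose (x axis), 1 point per array, run 2 (titles 20 to 27) left of run 1 (titles 10 to 16), with bars at the means. RT1-N2, RT1-CE5, RT1-CE7 and RT1-O1 separate the runs at every dose. RT1-CE7, RT1-O1 and RT1-N3 differ less, and their runs overlap when the doses are pooled. RT1-N3 also overlaps at the highest dose, and RT1-CE4 spans 7.87 to 8.19 over all arrays.

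Genes that stand next to RT1-N2 and RT1-CE5 differed less. RefSeq orders the members as RT1-T18, RT1-N2, RT1-S2, RT1-O1, RT1-N3 and RT1-S3 in the first block, where the differences between run 2 and run 1 were -0.04, -2.25, -0.23, -0.62, -0.85 and -0.23 log2. In the second block the order starts with RT1-CE16, RT1-CE15 and RT1-CE13, with differences of 0.24, -0.41 and -0.37 log2. RT1-CE11, RT1-CE10, RT1-CE5, RT1-CE4, RT1-CE7, RT1-CE3 and RT1-CE2 follow, with differences of -0.01, -0.21, -2.12, 0.07, -0.42, -0.14 and -0.37 log2. RT1-CE4 averaged 8.12 ± 0.05 in run 2 (SD, n = 8) and 8.05 ± 0.10 in run 1 (SD, n = 7), the narrowest spread of the genes plotted with it. The log2 difference between RT1-CE5 and RT1-CE4 on the same array changed by -2.17 between the runs, that between RT1-N2 and RT1-N3 by -1.41, and that between RT1-CE7 and RT1-CE4 by -0.49. These pairs were chosen after their values were seen, so the changes are given with no test.

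**Figure D2:**
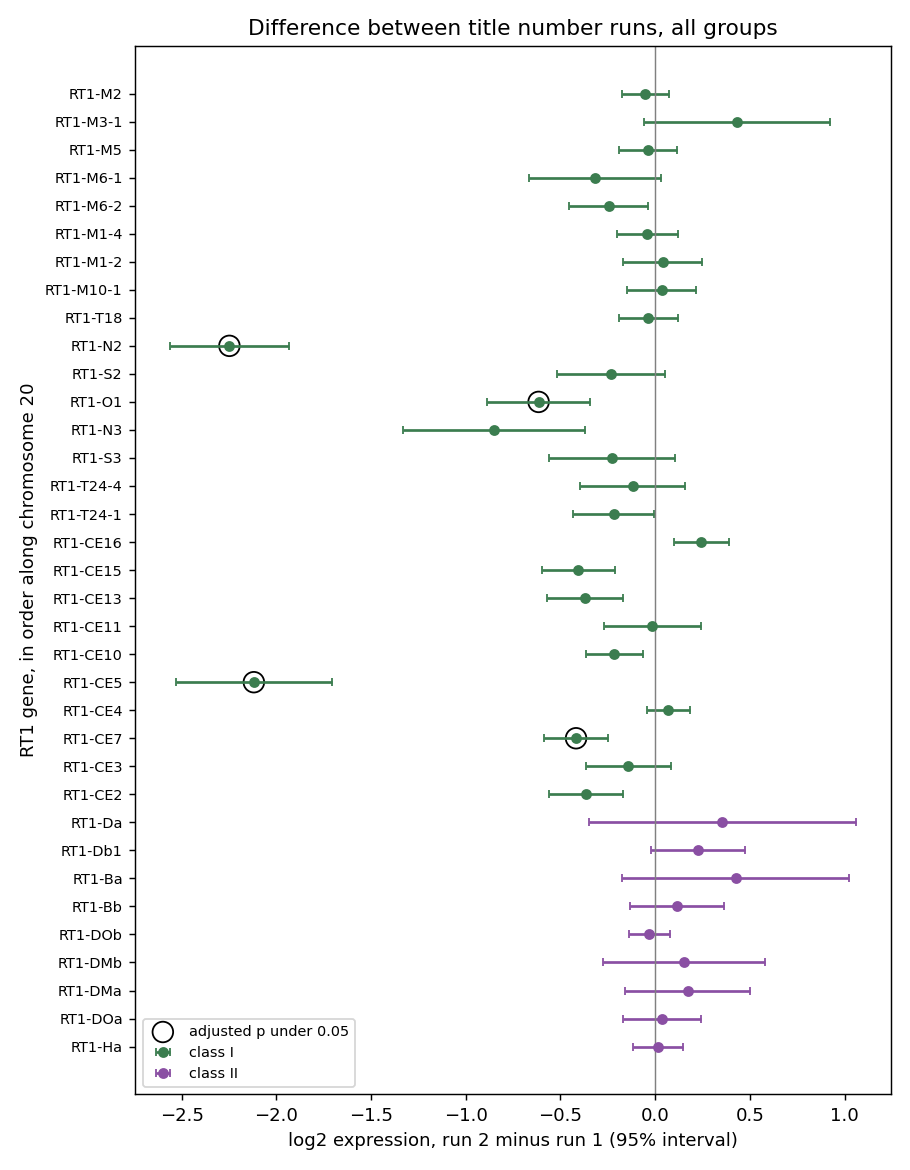
Difference in log2 expression, run 2 minus run 1 over all groups (x axis, points with 95% intervals), for the 35 RT1 genes in their order along chromosome 20 (y axis). RT1-N2 at -2.25 and RT1-CE5 at -2.12 lie far from the other genes, RT1-O1 and RT1-CE7 are the other 2 with adjusted p under 0.05, and the class II genes lie between -0.03 and 0.42.

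The run difference of RT1-N2 passed within each treatment group. It was -2.49 log2 with DMSO (adjusted p = 0.0037, limma), -2.19 with 10 µM flutamide (adjusted p = 0.00359) and -2.05 with 100 µM (adjusted p = 0.0197). For RT1-CE5 it was -2.53 with DMSO (adjusted p = 0.00937), -2.11 with 10 µM (adjusted p = 0.0235) and -1.64 with 100 µM, where it did not pass (adjusted p = 0.283). Some of these calls rested on single arrays. The DMSO calls of RT1-N2 and RT1-CE5 were lost without array 10 (adjusted p = 0.0938 and 0.189). The 100 µM call of RT1-N2 was lost without array 15, 26 or 27 (adjusted p up to 0.281), and the 10 µM call of RT1-CE5 without array 20, 12, 14, 23 or 24 (up to 0.137). The members called within the groups were thus 2, 2 and 1 of 35, against 0.0896%, 0.0414% and 0.0689% of all genes called lower. The change of the run difference with dose was tested itself, and 0 members passed (limma), with 3 at an unadjusted p under 0.05 for 10 µM (RT1-M1-4, RT1-M1-2 and RT1-CE3, against 3.56% of all genes in that direction) and 0 for 100 µM (6.08% of all genes in either direction). Of all genes, 0.0414% passed for 10 µM and 0.00689% for 100 µM. For RT1-CE5 that change was 0.90 log2 between 100 µM and DMSO, with a 95% interval of -0.13 to 1.93. Within single groups RT1-CE7, RT1-O1, RT1-CE15 and RT1-N3 had negative differences in all 3, none with an adjusted p under 0.05.

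What the probe sets measure limits these values. The annotation gives the RT1-N2 probe set an accession that it shares with RT1-N3, and both RT1-CE7 probe sets share one with a probe set listed for RT1-CE7, RT1-CE1 and RT1-CE12. RefSeq also lists RT1-CE7 as an older name of the RT1-CE5 gene. RT1-CE5 and RT1-CE7 are counted here as separate genes, as on the platform, with run differences of -2.12 and -0.42 log2. The second RT1-CE7 probe set had a run difference of -0.35 log2, the one for RT1-CE1 and RT1-CE12 -0.42, and the one for all 3 genes -0.45. The probe set for RT1-CE13 and RT1-CE14 had -0.50 and the one for the classical genes RT1-A1, RT1-A2 and RT1-A3 had -0.03, all given as values with no test. Signals of such similar genes may be mixed. The arrays' probe sequences were not used and the donors' class I alleles are not known here, so a lower transcript level in run 2 and a poorer match of the probes to the transcripts of those cells cannot be told apart.

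No gene that loads class I molecules passed the test between the runs over all groups. Of 14 measured genes of a list of 15 (B2m, Tap1, Tap2, Tapbp, immunoproteasome subunits and others), 0 were called (limma), and the median was -0.03 log2. At an unadjusted p under 0.05, 2 were higher and 3 lower, against 4.73% higher and 6.23% lower of all genes. Within groups the list's median run difference was 0.09 with DMSO, -0.09 with 10 µM and -0.12 with 100 µM, with 0 genes called in each (limma). At an unadjusted p under 0.05, 5 were higher and 1 lower with DMSO, against 5.36% of all genes higher and 511 of 14506 lower. With 10 µM 4 were lower (8.16% of all genes lower). With 100 µM 0 differed, against 388 of the 14506 genes higher and 516 lower. The change of the run difference between 10 µM and DMSO had a median of -0.29 log2 and was negative for 13 of 14 genes, 3 of them at an unadjusted p under 0.05 (6.68% of all genes lower) and 0 called. Array 23 had the lowest mean log2 level of this list, 8.57, against at least 8.68 on the other arrays. The 10 µM values of the list include that array. The lowest p was that of Psmb8, an immunoproteasome subunit (-0.40 log2, SE 0.09, adjusted p = 0.0719). B2m, the shared light chain of class I molecules, spanned 12.15 to 12.62 log2 over all arrays. Of 15 measured interferon response genes, 1 was called, the chemokine Cxcl10, which rose by 2.13 log2 in run 2 (SE 0.37, adjusted p = 0.0202, limma), against 0.545% of all genes called, and the median of the list was -0.01. Of 39 measured non-RT1 genes of the MHC region, 0 were called (limma), with a median of -0.02. Of these, 3 were higher and 2 lower at an unadjusted p under 0.05, against the same 4.73% and 6.23% of all genes. The lowest p of that list was that of the chloride channel gene Clic1 (-0.50 log2, adjusted p = 0.224, limma).

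Of the 9 class II genes, 0 were called between the runs (limma), 0 had an unadjusted p under 0.05, and the lowest adjusted p was 0.512, that of RT1-Db1. The differences of largest size were those of RT1-Ba (0.42 log2, 95% interval -0.17 to 1.02), the alpha chain of RT1.B, RT1-Da (0.36, -0.35 to 1.06), the alpha chain of RT1.D, and RT1-Db1 (0.22, -0.02 to 0.47), a beta chain of RT1.D. The smallest were those of RT1-Ha (0.02), RT1-DOb (-0.03) and RT1-DOa (0.04), the DO genes coding for a modulator of peptide loading. The class II median fell to 0.02 when array 23 was left out, where RT1-Ba had 0.14 and RT1-Da had 0.05, and 6 of 9 were then above 0 in place of 8. Of 13 genes of the class II pathway, 0 were called between the runs (limma), and the median was -0.01. At an unadjusted p under 0.05, 1 was lower, against 6.23% of all genes lower. The lowest p was that of the lysosomal protease gene Lgmn (-0.42 log2, adjusted p = 0.0911).

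The class II genes were high on array 23. There RT1-Da had a log2 level of 8.23, against 5.97 ± 0.34 on the other arrays of 10 µM flutamide (SD, n = 5) and at most 6.51 on any other array. RT1-Ba had 7.36, against 5.18 ± 0.13 on those 5 arrays and at most 5.99 elsewhere. RT1-DMb and RT1-DMa, both chains of the DM molecule that loads peptides onto class II, had 6.59 and 7.71, against means of 5.22 and 6.55. RT1-Db1 had 4.95 (mean of the others 4.23), RT1-Bb, the beta chain of RT1.B, had 5.83 (5.14), and RT1-DOa had 6.06 (5.55). Array 23 was thus the highest of the 15 for 7 of 9 class II genes (77.8%), against 18.8% of all genes and 2 of 26 class I genes (7.69%). The exceptions were RT1-DOb with 5.37 and RT1-Ha with 4.40, both inside the range of the other arrays.

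Markers of macrophages and of several other cell types were high on the same array. Cd74, the invariant chain that guides class II molecules, had 10.06, against 6.88 ± 0.47 on the other 10 µM arrays (SD, n = 5). Cd163, a scavenger receptor of macrophages, had 8.51, against 5.66 ± 0.49, and Csf1r, the receptor of their growth factor, had 5.87, against 5.17. Cd68 had 9.85, inside the range of the other arrays. The mean log2 level of 13 measured Kupffer cell and macrophage markers of 14 listed was 7.22 on array 23. It spanned 5.75 to 6.76 on the DMSO arrays, 5.52 to 6.02 on the other 10 µM arrays and 5.56 to 6.26 on the 100 µM arrays. Array 23 also had the highest mean log2 level of the stellate cell and fibroblast markers (5.81, against at most 5.496 on the other arrays), the endothelial markers (5.34, against at most 5.14) and the dendritic cell markers (5.19, against at most 5.12). T and NK cell markers were at 4.09 there, with at most 4.09 elsewhere, whereas B cell markers (4.97) were not at their highest. Cholangiocyte markers were at 5.81, below the lowest of the other arrays (5.91). Hepatocyte markers were at 10.95, against 10.44 to 10.97 on the other arrays. Array 21 (DMSO, run 2) was the next highest for Cd163 with 8.00 and close to array 23 for Csf1r with 5.80. On array 21, RT1-Da had 6.22 and RT1-Ba had 5.76. The part of these cells in the class II levels was not tested. In bulk RNA, more cells of a type and more RNA per cell cannot be told apart.

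**Figure D3:**
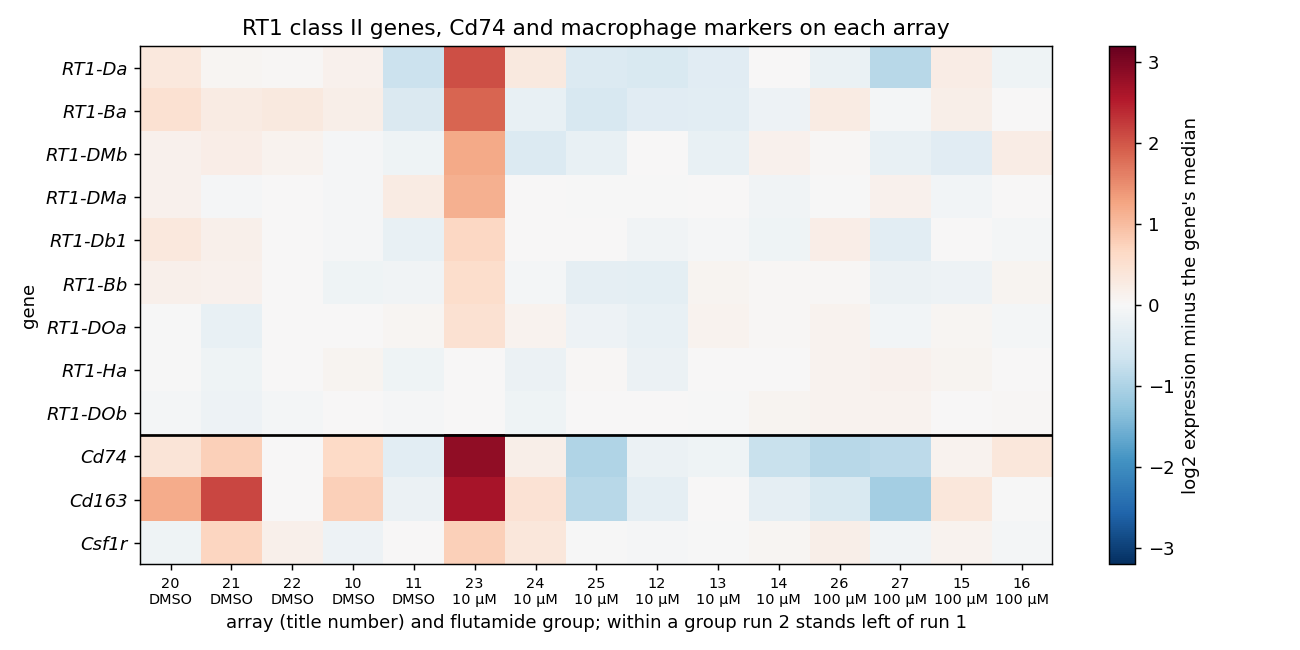
Log2 expression minus the gene's median over the 15 arrays (colour) for the 9 class II genes, Cd74 and the macrophage markers Cd163 and Csf1r (rows, divided by a line) on each array (columns, by dose, run 2 left of run 1). The column of array 23 is the highest for RT1-Da (8.23), RT1-Ba (7.36) and 5 other class II genes and for the 3 genes under the line.

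By flutamide dose, no RT1 gene passed the test. With the run in the model, 0 of 35 members passed limma's test between 10 µM flutamide and DMSO, 0 between 100 µM and DMSO, and 0 between 100 µM and 10 µM. The same fit called 0.0% of all genes in each of these 3 comparisons. At an unadjusted p under 0.05, 3 members differed at 10 µM, all higher (against 3.83% of all genes higher), 1 at 100 µM (against 6.85% in either direction) and 1 between the doses (against 4.98%). The members' differences ran from -0.07 to 0.34 log2 at 10 µM (median 0.06) and from -0.20 to 0.35 at 100 µM (median 0.03). The class I medians were 0.08 at 10 µM and 0.06 at 100 µM, and the class II medians were 0.04 and -0.05. The 2 comparisons with DMSO share the DMSO arrays.

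RT1-N2 averaged 6.02 ± 1.37 with DMSO (SD, n = 5), 6.54 ± 1.25 with 10 µM (SD, n = 6) and 6.59 ± 1.21 with 100 µM (SD, n = 4), spreads that hold both runs. With the run in the model its differences from DMSO were 0.30 log2 at 10 µM (95% interval -0.07 to 0.67) and 0.35 at 100 µM (-0.06 to 0.76). RT1-CE5 differed from DMSO by 0.24 log2 at 10 µM (-0.24 to 0.72) and by -0.17 at 100 µM (-0.70 to 0.36), and by -0.41 between 100 µM and 10 µM (-0.92 to 0.10). For both genes the run difference was larger than any dose difference that these intervals allow.

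Among class I genes the lowest p at 10 µM were those of RT1-T24-1 and RT1-CE11. RT1-T24-1 averaged 6.41 ± 0.27 with 10 µM (SD, n = 6) and 6.08 ± 0.19 with DMSO (SD, n = 5), a difference of 0.32 log2 (SE 0.12, adjusted p = 0.525, limma). RT1-CE11 averaged 7.03 ± 0.29 with 10 µM and 6.69 ± 0.08 with DMSO, a difference of 0.34 log2 (SE 0.14, adjusted p = 0.576). Array 23 was the highest of the 15 for both, and without it the differences were 0.21 and 0.25 log2. RT1-CE3 had 0.27 log2 (SE 0.12, adjusted p = 0.641), and its difference within run 1 alone was -0.021. At 100 µM the lowest p were those of RT1-CE2 (0.27 log2, SE 0.12, adjusted p = 0.715) and RT1-CE16 (0.17, SE 0.09, adjusted p = 0.758). Between 100 µM and 10 µM they were those of RT1-CE11 (-0.33 log2, SE 0.15, adjusted p = 0.93) and RT1-CE5.

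Among class II genes the lowest p were those of RT1-DOb and RT1-DOa at 10 µM, and of RT1-DOb and RT1-Ha at 100 µM. RT1-DOb, the beta chain of DO, averaged 5.30 ± 0.06 with DMSO (SD, n = 5), 5.36 ± 0.07 with 10 µM (SD, n = 6) and 5.43 ± 0.05 with 100 µM (SD, n = 4). All 100 µM arrays (5.38 to 5.48) lay above all DMSO arrays (5.21 to 5.36), as for 1.13% of all genes, and the difference of 0.13 log2 did not pass (SE 0.06, adjusted p = 0.744, limma). RT1-Ha differed by 0.13 log2 at 100 µM (adjusted p = 0.784), and RT1-DOa by 0.10 at 10 µM (adjusted p = 0.915). RT1-Da had 0.24 log2 at 10 µM and RT1-Ba -0.07, and without array 23 these were -0.17 and -0.45 (adjusted p = 0.903 and 0.4). In the class I loading, class II pathway, interferon response and other MHC region lists, 0 genes passed in any dose comparison (limma).

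**Figure D4:**
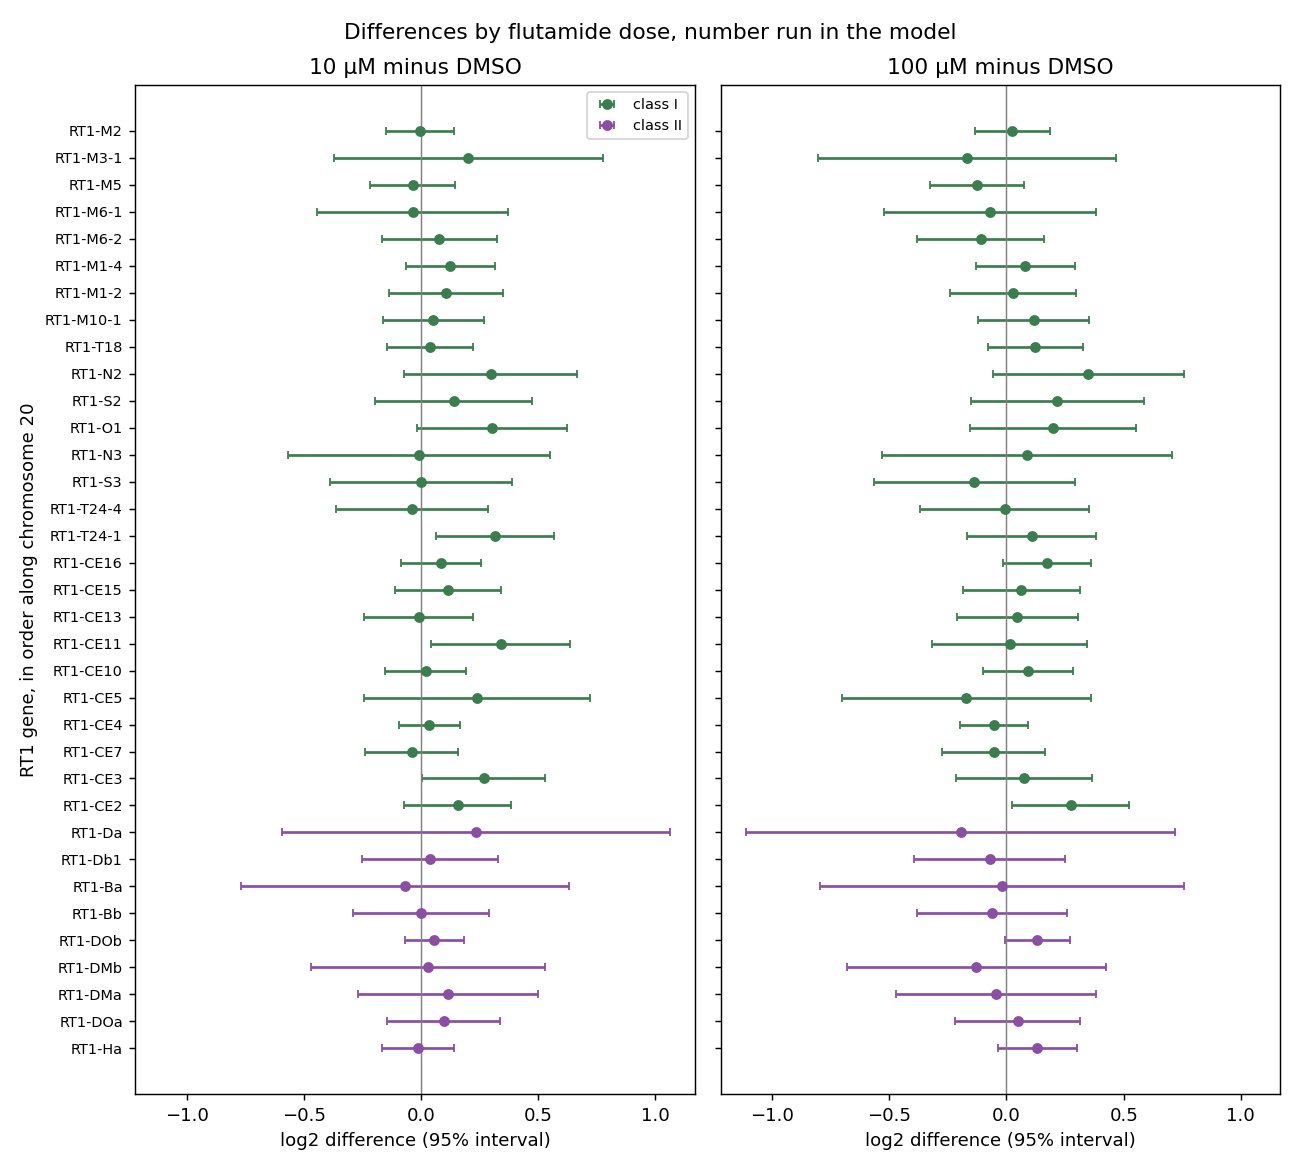
Log2 differences of 10 µM (left) and 100 µM flutamide (right) from DMSO (x axes, points with 95% intervals), with the run in the model, for the 35 RT1 genes in order along chromosome 20 (y axis). All points lie between -0.20 and 0.35, none passed the test over all genes, and the widest intervals are those of RT1-Da.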

How the data were processed

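The authors deposited a table of log2 expression values with a line for each probe set and a column for each array. Per the submitters' processing notes, the authors used RMA and the Partek software. RMA corrects background, normalizes arrays by quantiles and summarises probes. No version or setting was given in the sources used here. Detection calls were not used, so whether a dim gene is above background is unknown.

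Of 29214 probe sets, 15633 had a platform annotation, 15310 with 1 symbol and 323 with several. The probe set of highest mean stood for each of 14506 genes, of which 14480 matched RefSeq (GRCr8) by gene identifier. All genes were fitted with limma 3.58.1 in R 4.3.3 (lmFit and eBayes) on log2 values. Run and dose comparisons came from 1 fit with group and title number run (11 residual degrees of freedom). Comparisons within groups and their differences came from a fit with all combinations of the 2 (9 degrees of freedom). Calls were made at 0.05 after Benjamini-Hochberg adjustment across the whole table. The steps were tested on simulated data. The number of arrays limits the precision.

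The genes named were RT1-N2, RT1-CE5, every called member, and in each class those of highest mean, of largest and smallest run difference and of lowest p by dose. Of each gene list, called members or the one of lowest p were named, and any further gene was picked with its values in view. The members and lists were chosen with earlier results of these data known. Alternatives were renewed quantile normalization, a filter on dim genes, other probe set rules, array quality weights, a variance trend, models without the run or within 1 run, and leaving out arrays.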

Additional observations from a re-analysis of the deposited data

Results flagged for a closer look

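In each treatment group and for each of the 35 genes, the highest and the lowest array were set against the others by Dixon's ratio, which flags about 1 in 20 groups by chance. Of 105 such groups, 13 held an array that stood apart, and 5 of the 13 were array 23 in the 10 µM group, all class II genes: RT1-Ba with 7.36 log2, RT1-Da with 8.23, RT1-Db1 with 4.95, RT1-DMa with 7.71 and RT1-DMb with 6.59. On that array Cd74 was at 10.06 and Cd163 at 8.51.

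The other 8 were spread over genes and arrays. In the DMSO group, RT1-DOa was low on array 21 (5.35 log2), RT1-T18 was low on array 20 (4.67), RT1-M5 was high on array 11 (5.25) and RT1-M6-1 was high on array 10 (6.55). The other DMSO arrays all had the same RT1-T18 value, 4.81, so any departure there would have been flagged. In the 10 µM group, RT1-CE13 was low on array 25 (6.85) and RT1-M6-1 was high on array 13 (6.70). In the 100 µM group, array 26 was low for RT1-M5 (4.78) and for RT1-N3 (4.49), whose other 3 arrays lay between 5.88 and 6.09.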

How the results depend on the processing

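RT1-N2 (-2.34 to -2.19 log2) and RT1-CE5 (-2.35 to -1.99) passed between the runs over all groups under all 22 alternatives. The count of members called, 4 in the report, was 2 with the mean of all probe sets of a gene, 7 with array quality weights, and 2 to 6 when single arrays were left out. The share of all genes called was not taken under each alternative, so a changed count may not be particular to the RT1 genes. RT1-CE7 did not pass after renewed quantile normalization (adjusted p = 0.0855), with the mean of its probe sets (0.256) or with a variance trend (0.0771). RT1-O1 did not pass with all probe sets tested (0.0717), with mean probe sets (0.0501), or without the 3 arrays of lowest weight (0.0791), an alternative chosen after seeing the data. RT1-CE15 and RT1-N3 passed with quality weights (0.0159 and 0.0403). RT1-CE15 passed in 4 of 22 alternatives, also without array 23 and without array 24. RT1-N3 passed in 2 of 21, the other being without array 27. Leaving out single arrays gave 0 to 2 members called within DMSO, 1 to 3 within 10 µM and 0 to 1 within 100 µM, and without the 3 arrays of lowest weight 0 were called within 10 µM and 0 within 100 µM. RT1-N3 within 100 µM ranged from -1.41 to 0.20 log2, positive only without array 26, and RT1-CE3 at 10 µM was -0.021 within run 1 alone. The cause of these changes was not tested. No member passed (0) in any dose comparison or difference of run differences under any alternative run. No paired analysis was possible because the title numbers are not shared between groups. Background correction was not run again, since the values analysed were already processed.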

Other observations

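Markers of other cell types of the liver were set between the runs in the same fit. Of 4 measured endothelial markers, 4 were above 0 in run 2 (median 0.32 log2), 3 of them at an unadjusted p under 0.05 (against 4.73% of all genes higher) and 0 by limma's adjusted p. Their mean log2 level spanned 4.60 to 5.34 in run 2 and 4.52 to 4.86 in run 1, and array 23 was the highest. On the other 10 µM arrays it was 4.61 and 4.60 in run 2, and 4.52, 4.61 and 4.56 in run 1. Of 13 Kupffer cell and macrophage markers 10 were above 0 (median 0.09 log2) and 0 were called over all groups (limma). At an unadjusted p under 0.05, 1 was lower, against 6.23% of all genes lower. That was Cd68, with -1.42 log2 (SE 0.32, adjusted p = 0.0708). Within DMSO, Cd68 was called lower in run 2, with -2.69 log2 (adjusted p = 0.0164, limma), against 0.0896% of all genes called lower. Within 10 µM and within 100 µM, 0 of these macrophage markers were called. Stellate cell and fibroblast markers (6 measured) had a median of 0.01, dendritic cell markers (7) 0.07, T and NK cell markers (7) -0.04, cholangiocyte markers (3) 0.04 and B cell markers (2) 0.01. Of these markers 0 were called (limma), and 1 dendritic cell marker was higher at an unadjusted p under 0.05, against 4.73% of all genes higher.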
